A study of Danio rerio with 72 samples.

Results

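The genes described here are sp5a and sp5l, which encode zinc finger transcription factors of the Sp family in zebrafish. They were taken as the probe sets whose annotated symbol is sp5a or sp5l. Each gene (Entrez 353154 for sp5a and 324261 for sp5l) had 1 probe set, so the pair made up 2 of the 15502 probe sets that remained once control probe sets were removed. Both passed the filter on dim probe sets and were tested among 10126. No protein or promoter sequence of either gene and no chromosome position was used here.

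Wnt ligands bind Frizzled receptors and their Lrp co-receptors, which stabilises beta-catenin, and beta-catenin acts on target genes through Tcf and Lef proteins. Sp5 genes are known as direct targets of this pathway in vertebrates. In zebrafish, sp5a and sp5l are known to act downstream of Wnt in the patterning of mesoderm and neuroectoderm, and Fgf signals have also been linked to their expression. In the tail bud, Wnt signalling helps to keep posterior progenitor cells unsegmented and opposes retinoic acid, which comes from the somites.

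RNA was measured on 72 Affymetrix arrays of posterior presomitic mesoderm (PSM), the unsegmented tissue behind the somites, dissected from embryos at the 12-somite stage. Drug groups were wild-type AB embryos kept in retinoic acid (RA), in DAPT, a gamma-secretase blocker that keeps Notch from being activated, or in the solvent DMSO, for 1.5 h or 3 h. Each drug experiment had its own DMSO groups. The other groups were heat-shocked at 37 °C, and their transgenes are driven by a heat-inducible promoter, so that expression is not limited to the PSM. Embryos shocked for 30 min were wild-type AB and Tg(hsp701;dnfgfr1-EGFP), with a dominant-negative Fgf receptor, dissected 30 min or 1 h later, and Tg(hsp:70:DeltaTcF-gfp), Tg(hsp:70:dkk1-gfp) and Tg(hsp:70:wnt8a-gfp), dissected 1 h later. DeltaTcf is a truncated Tcf made to block Wnt target genes, dkk1 is a secreted Wnt inhibitor that binds the Lrp co-receptors, and wnt8a is a Wnt ligand. Embryos shocked for 1 h and dissected 45 min or 90 min later were Tg(hsp70;gal4VP16), called gal4 here, and Tg(UAS:myc-notch1a-intra) crossed to that line, called notch1a-intra, in which gal4 drives the active intracellular part of Notch. There were 19 groups of 4 arrays, apart from DAPT, with 3 arrays at 1.5 h and 2 at 3 h, and the 3 arrays of RA at 3 h. The labels call the arrays biological replicates and do not say how many embryos were pooled for each.

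Levels are log2 of the normalised signal, on a scale whose bottom is 4, and an error beside a level is the SD over arrays. Differences are log2 differences between groups from 1 limma fit across all 10126 probe sets, with standard errors (SE) and p-values adjusted by Benjamini-Hochberg within each comparison. A gene is called at an adjusted p under 0.05. Levels of different probe sets are not compared, because probes differ in brightness. Of the PSM markers, all 10 on the list were on the array and tested, and their mean was at least 8.14 on every array. The heat shock gene hsp70.3 averaged between 8.98 and 12.63 in every heat-shocked group, and between 4.64 and 5.77 in every drug or DMSO group.

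A pair of labels was put in doubt by the genes that the transgenes carry. The level of dkk1b was 5.44 ± 0.51 in wild type at 1 h and 13.05 ± 0.08 in the dkk1 group (SD, n = 4 each). The libraries labelled DeltaTcf were as high, at 12.81 ± 0.09, so that what is said of DeltaTcf holds only if their label is right. Among the arrays labelled notch1a-intra at 45 min, notch1a lay anywhere from 8.0 to 11.83, and replicates 2 and 4 were near the gal4 arrays.

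Both genes read lower in the groups made to inhibit Wnt than in wild type at 1 h, and sp5a by more than sp5l. In wild type at 1 h the 4 arrays read 8.27, 7.59, 8.09 and 8.0 for sp5a. In dkk1 embryos they read 4.69, 5.24, 5.16 and 5.21. In the libraries labelled DeltaTcf they read 5.38, 5.27, 5.45 and 4.94. Every array of these 8 lay more than 2 units below every wild-type array, and all 8 put sp5a at or below the median of the array. The wnt8a arrays read 7.59, 8.26, 7.91 and 7.01 and overlapped wild type. On the deposited linear scale the mean signal of sp5a was 243 ± 50.5 (SD, n = 4) in wild type, 192 ± 71.7 in wnt8a, 24.2 ± 6.96 in the libraries labelled DeltaTcf and 18.9 ± 5.74 in dkk1, the last of which is close to the pseudocount of 16.

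For sp5l the wild-type arrays at 1 h read 11.03, 10.25, 10.57 and 10.93. The dkk1 arrays read 9.91, 9.91, 9.92 and 9.80, and the libraries labelled DeltaTcf 9.78, 9.19, 9.72 and 9.18. The values of each group ended below the lowest wild-type array, by a smaller margin than for sp5a. The wnt8a arrays, at 10.92, 11.33, 10.92 and 10.78, overlapped wild type. On all of these arrays sp5l stayed above the array median.

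**Figure D1:**
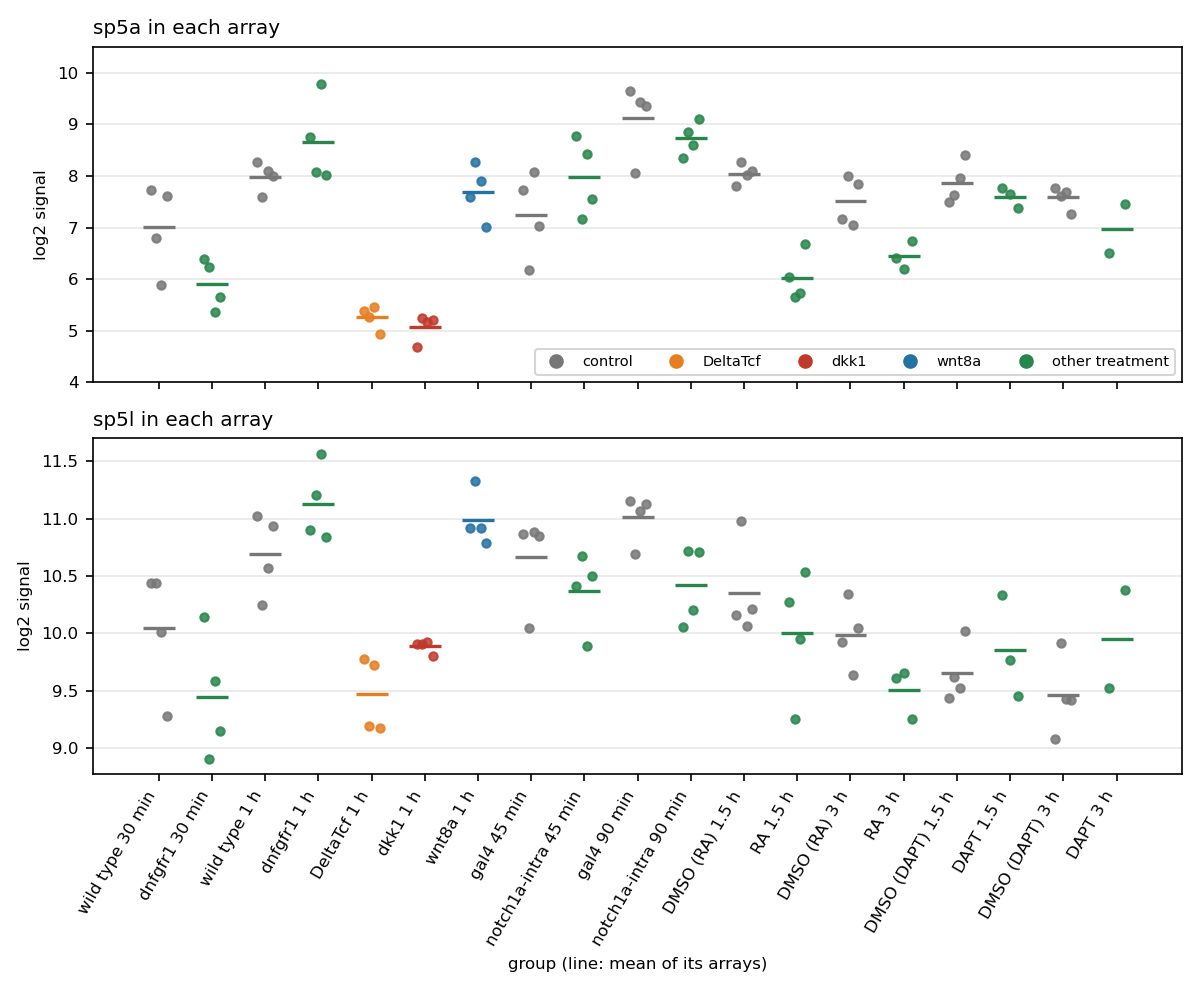
Log2 signal of sp5a (top) and sp5l (bottom) on each of the 72 arrays, by group along the horizontal axis; points are arrays and lines are group means. The dkk1 group and the libraries labelled DeltaTcf form the lowest sp5a groups, at means of 5.08 and 5.26, while several groups lie as low for sp5l.

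Against wild type, sp5a fell in both inhibited groups. The limma difference was -2.91 ± 0.36 (log2, SE, n = 4 and 4, adjusted p = 1.23e-08) in dkk1 and -2.72 ± 0.36 (adjusted p = 1.16e-07) in the libraries labelled DeltaTcf. For sp5l it was -1.23 ± 0.26 (adjusted p = 0.000342) in the libraries labelled DeltaTcf and -0.81 ± 0.26 (adjusted p = 0.0158) in dkk1, or 2.34-fold and 1.75-fold lower. These calls stand against a high background, since 10.6% of all probe sets tested were called lower in the libraries labelled DeltaTcf and 12.1% in dkk1. The 3 Wnt groups were compared with the same 4 wild-type arrays. With 1 wild-type array left out the dkk1 call of sp5l was lost, at -0.70 (limma adjusted p = 0.0653) without replicate 1 and -0.73 (adjusted p = 0.0548) without replicate 4. With wild type at 30 min as the control, no sp5l call remained in the inhibited groups, at -0.58 (adjusted p = 0.0948) in the libraries labelled DeltaTcf and -0.16 (adjusted p = 0.697) in dkk1. In tissue samples of this kind, fewer cells of a type and less RNA per cell cannot be told apart.

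In the wnt8a group neither gene was raised past the threshold. The difference from wild type was -0.29 for sp5a, with a 95% interval of -1.02 to 0.44 (limma adjusted p = 0.661), and 0.29 for sp5l, with an interval of -0.23 to 0.81 (adjusted p = 0.508). At the same time 16.2% of probe sets were called in either direction between wnt8a and wild type. Of 30 Wnt pathway genes tested, none was called higher in wnt8a and 7 were called lower, axin2 among them at -1.14. Whether the transgene raised Wnt activity in this group was not tested. With wild type at 30 min as control, sp5l was higher in wnt8a by 0.94 (adjusted p = 0.00457), and sp5a differed by 0.69, without a call.

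The Wnt groups can also be set against each other, without any wild-type array. Between dkk1 and wnt8a 1.74% of probe sets were called lower, and both genes were among them. The difference was -2.62 ± 0.36 for sp5a (log2, SE, limma adjusted p = 1.56e-06) and -1.1 ± 0.26 for sp5l (adjusted p = 0.00764), or 2.15-fold lower. The fold of sp5a is not well fixed, since dkk1 arrays read at or below the array median: it was 6.13-fold with the pseudocount and 10.2-fold on the deposited signals. Between the libraries labelled DeltaTcf and wnt8a, where 1.30% of probe sets were called lower, the difference was -2.43 ± 0.36 for sp5a (limma adjusted p = 1.01e-05) and -1.52 ± 0.26 for sp5l (adjusted p = 9.43e-05). Of the calls between the libraries labelled DeltaTcf and wnt8a 48.4% were higher, and 36.8% with median centring. In each of these comparisons the arrays of the groups did not overlap for either gene. Ordered by the size of the log2 fall, on the scale with the pseudocount, among all probe sets tested, sp5a came at place 5 and sp5l at place 98 in dkk1 against wnt8a, and at places 8 and 44 in the libraries labelled DeltaTcf against wnt8a. Both pairs of calls held under every alternative run, arrays left out in turn included.

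Neither gene by itself was called between the dkk1 group and the libraries labelled DeltaTcf. The difference, DeltaTcf minus dkk1, was 0.19 for sp5a, with a 95% interval of -0.54 to 0.92 (limma adjusted p = 0.876). For sp5l it was -0.42, with an interval of -0.94 to 0.10 (adjusted p = 0.462), although no array of one group overlapped the other. Between these groups 3.48% of probe sets were called in either direction, 50.9% of them higher, or 38.7% with median centring.

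**Figure D2:**
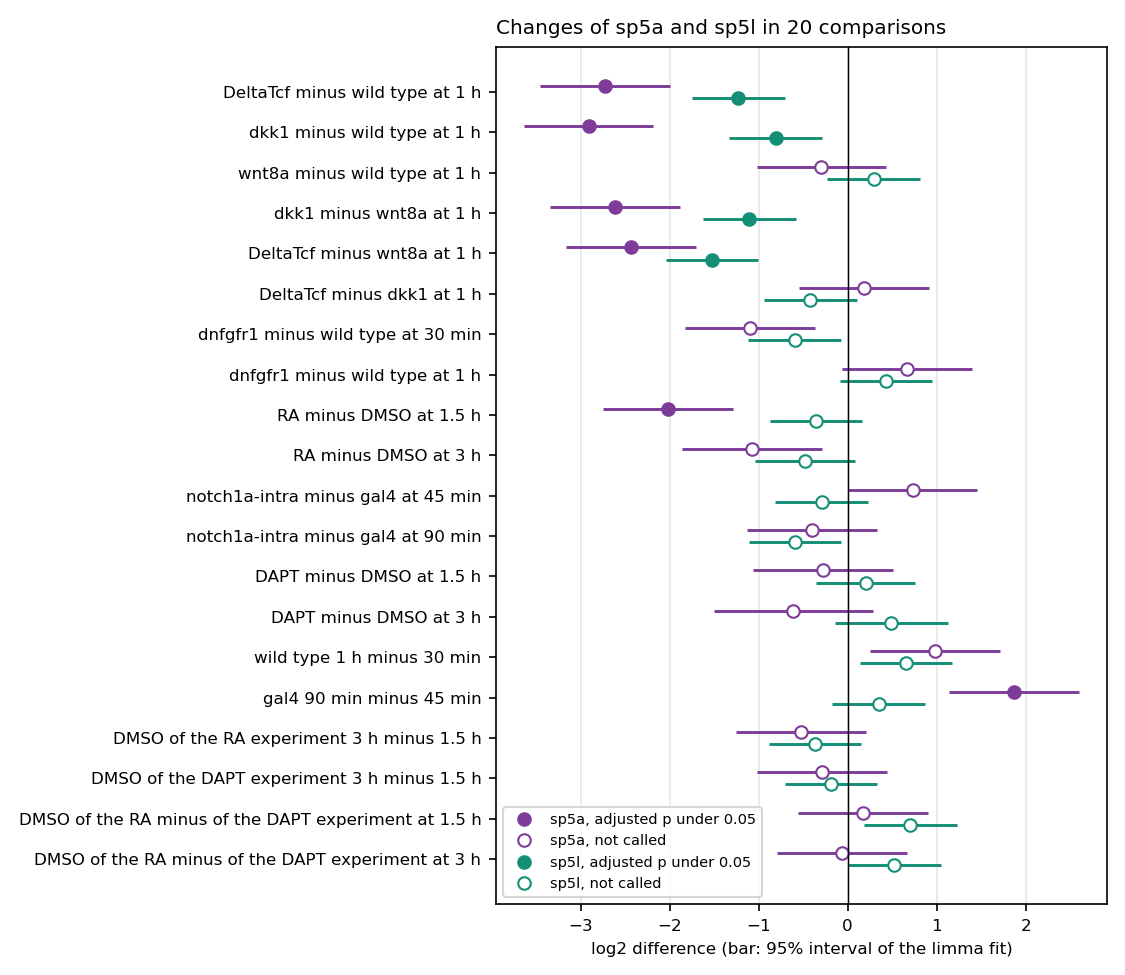
Log2 difference of sp5a (purple) and sp5l (green) in 20 comparisons, with the 95% interval of the limma fit as bars; filled points have an adjusted p under 0.05. The dkk1 group and the libraries labelled DeltaTcf, against wild type and against wnt8a, carry 4 calls of each gene, which share arrays. RA at 1.5 h and gal4 over time carry 1 further call each of sp5a.

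The difference between the changes read by the sp5a and sp5l probe sets was tested within arrays, as sp5a minus sp5l on each array. This value was -2.76, -2.66, -2.48 and -2.94 on the wild-type arrays at 1 h. It was -5.22, -4.67, -4.76 and -4.59 in dkk1 and -4.40, -3.92, -4.27 and -4.23 in the libraries labelled DeltaTcf. In wnt8a it was -3.33, -3.06, -3.01 and -3.78. No group overlapped another, and the value was lowest in dkk1, followed by the libraries labelled DeltaTcf, wnt8a and wild type. In wnt8a the changes of the genes had opposite signs and neither was called.

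Relative to wild type the change of sp5a minus that of sp5l was -2.10 in dkk1, -1.50 in the libraries labelled DeltaTcf and -0.59 in wnt8a. Relative to wnt8a it was -1.51 in dkk1 and -0.91 in the libraries labelled DeltaTcf, and DeltaTcf minus dkk1 gave 0.60. Each of the 6 gave p = 0.0286 in an exact two-sided permutation test of 4 arrays against 4, the smallest that 70 splits allow, and 0.0286 after adjustment over the 6. These 6 tests reuse the same Wnt and wild-type arrays and are not independent. Whether the differences lie in the genes or in how their probe sets report a change was not tested. Their sizes moved with the deposited scaling and with pseudocounts of 1 and 64. Against wild type the value ran from -2.89 to -1.10 in dkk1 and from -2.13 to -0.63 in the libraries labelled DeltaTcf. In dkk1 against wnt8a it ran from -2.27 to -0.58. The value between the libraries labelled DeltaTcf and wnt8a did not pass on the deposited scaling, at -0.71 (exact permutation, adjusted p = 0.0571), or with a pseudocount of 64, at -0.11 (adjusted p = 0.571).

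**Figure D3:**
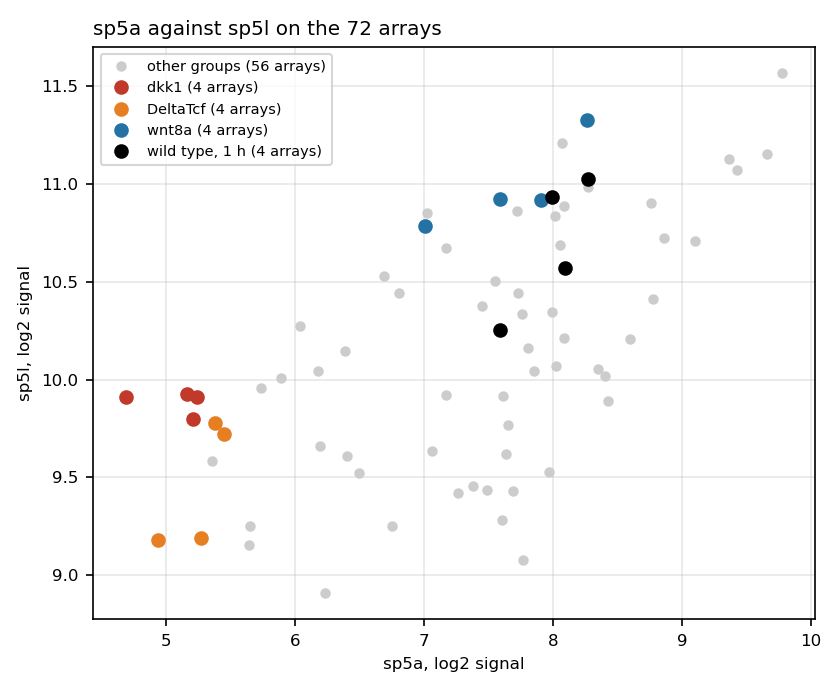
Log2 signal of sp5l (vertical) against sp5a (horizontal) on the 72 arrays, with the Wnt groups and wild type at 1 h coloured and the other 56 arrays in grey. The dkk1 arrays and those labelled DeltaTcf lie at the left edge, below 5.5 for sp5a, with sp5l between 9.18 and 9.92. A grey array, replicate 3 of dnfgfr1 at 30 min, lies among them, with sp5a at 5.35 and sp5l at 9.58.

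Marker lists moved between these groups too. The mean of the 10 PSM markers was at least 9.35 on each wild-type array at 1 h and spanned 8.72 to 9.30 in dkk1, 8.76 to 9.33 in the libraries labelled DeltaTcf and 9.24 to 9.43 in wnt8a, so that both inhibited groups lay below wild type without overlap. Of these markers 1 was called lower in each, beside 12.1% of all probe sets in dkk1 and 10.6% in the libraries labelled DeltaTcf. In dkk1 1 was called higher, and the part of these markers in the falls of the pair was not tested. The markers of neural tissue, which lies next to the dissected PSM, were also lower. All 7 neural tube markers listed were on the array, and their mean per array spanned 5.63 to 7.41 in wild type at 1 h, 5.95 to 7.26 in wnt8a, 5.52 to 5.94 in dkk1 and 5.30 to 5.83 in the libraries labelled DeltaTcf. Both inhibited groups lay below wnt8a without overlap and overlapped wild type. Of the 7 neural markers, 1 was called lower in the libraries labelled DeltaTcf against wild type, beside 10.6% of all probe sets. None was called in dkk1 against wild type or in either inhibited group against wnt8a. The mean of the 4 notochord markers on the array also lay below wnt8a without overlap in both inhibited groups, and overlapped wild type. It was at most 5.22 in dkk1 and 5.01 in the libraries labelled DeltaTcf, and at least 5.33 in wnt8a. Of 2 notochord markers tested, 1 was called lower against wnt8a in each, beside 1.74% and 1.30% of all probe sets. This was noto, at -2.72 in dkk1 and -2.61 in the libraries labelled DeltaTcf. In dkk1 against wild type noto was called lower, at -1.95, but the other tested marker was called higher. Neither was called in the libraries labelled DeltaTcf against wild type. Of the neural markers sox2 and sox3 reached group means of 8.49 and 9.97, while sox19b stayed between 4.35 and 5.52. The group means of sox19a ran from 4.66 to 10.41, the highest of the list. Wild-type replicates 2 and 3 had marker means of 5.63 and 5.71, inside the dkk1 range. On these arrays sp5a read 7.59 and 8.09 and sp5l 10.25 and 10.57, each above every dkk1 array. The wild-type replicates whose removal ended the dkk1 call of sp5l, 1 and 4, had marker means of 7.04 and 7.41. How much of the sp5a and sp5l differences goes with neural tissue or with the notochord markers was not tested.

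Other genes of the pathway moved with the pair only in part. Of 68 Wnt pathway genes listed, 38 were on the array and 30 were tested. In dkk1 against wild type 1 was called higher and 10 lower, with a median difference of -0.27 against -0.01 over all probe sets. In the libraries labelled DeltaTcf 1 was higher and 7 lower, and in wnt8a none was higher and 7 lower. Of all probe sets 12.1%, 10.6% and 8.39% were called lower in dkk1, the libraries labelled DeltaTcf and wnt8a against wild type. Against wnt8a the counts were 1 higher and 2 lower in each inhibited group. Fewer of all probe sets were called lower there too, 1.74% in dkk1 and 1.30% in the libraries labelled DeltaTcf. The gene called higher was dkk1b in every case, and the 2 called lower against wnt8a were axin2 and fzd10.

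The negative feedback regulator axin2, a standard readout of Wnt activity, also fell, with differences of -3.54 ± 0.27 in dkk1 (log2, SE, limma adjusted p = 8.46e-16) and -3.38 ± 0.27 (adjusted p = 8.6e-15) in the libraries labelled DeltaTcf. Against wnt8a they were -2.40 and -2.25, beside -2.62 and -2.43 for sp5a. It fell in wnt8a against wild type too, with -1.14 (adjusted p = 0.0015), where sp5a and sp5l were not called. The scaffold gene axin1 fell in all 3 Wnt groups against wild type, with differences of -1.25, -0.91 and -0.86 in dkk1, the libraries labelled DeltaTcf and wnt8a in turn. So did the dishevelled gene dvl3a, with -0.81, -0.42 and -0.46. Neither was called between the Wnt groups. The Frizzled receptor gene fzd10 fell, with -0.61 in dkk1 and -0.65 in the libraries labelled DeltaTcf against wild type.

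Among the Sp family genes tested, the pair alone was called lower against wnt8a. Of 12 listed, 6 were on the array and 5 were tested, namely sp1, sp4, sp8b and the pair. The general factor sp1 was called in none of the 6 Wnt comparisons, with differences from -0.20 to 0.15. Its relative sp4 fell in all 3 Wnt groups against wild type, with differences of -1.05 in dkk1, -0.83 in the libraries labelled DeltaTcf and -1.05 in wnt8a, and was not called between these groups. The values of sp8b, known from limb and neural development, were -1.50 (limma adjusted p = 0.0576) in dkk1 and -0.88 (adjusted p = 0.319) in the libraries labelled DeltaTcf against wild type, with an SE of 0.60 each. Against wnt8a its values were -1.67 (adjusted p = 0.114) in dkk1 and -1.05 (adjusted p = 0.428) in the libraries labelled DeltaTcf, without a call but as large in dkk1 as the called -1.1 of sp5l. Whether the response of the pair differs from that of these relatives was not tested.

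Of 40 genes of posterior mesoderm and tail bud listed, 30 were on the array and 28 were tested. In dkk1 against wild type 2 were called higher and 8 lower, where 12.1% of all probe sets were called lower. In the libraries labelled DeltaTcf 1 was higher and 4 lower, against 10.6%, and in wnt8a 1 was higher and 2 lower, against 8.39%. The higher ones in dkk1 were dld, at 0.35 (limma adjusted p = 0.00242), which had the smallest p of the list, and cdx4, at 0.20 (adjusted p = 0.0374). The lower ones in dkk1 included cyp26a1, which breaks down retinoic acid, at -2.20 (limma adjusted p = 0.00316), bmp4 at -1.77 (adjusted p = 0.005), the repressor gene vox at -1.16 (adjusted p = 0.00658) and the zinc finger gene sall4 at -1.27 (adjusted p = 0.00687). The sall4 level in dkk1, 4.28, was near the bottom of the scale, it fell in wnt8a too, with -1.48 (adjusted p = 0.00266), and it was 2.08 higher in the libraries labelled DeltaTcf than in wnt8a. Against wnt8a 1 was called higher and 2 lower in each inhibited group. Of all probe sets 1.74% were called lower there in dkk1 and 1.30% in the libraries labelled DeltaTcf. In dkk1 the higher one was dld, at 0.37 (limma adjusted p = 0.0118), and the lower ones were vox, at -1.14, and noto, a gene of notochord precursors, at -2.72.

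**Figure D4:**
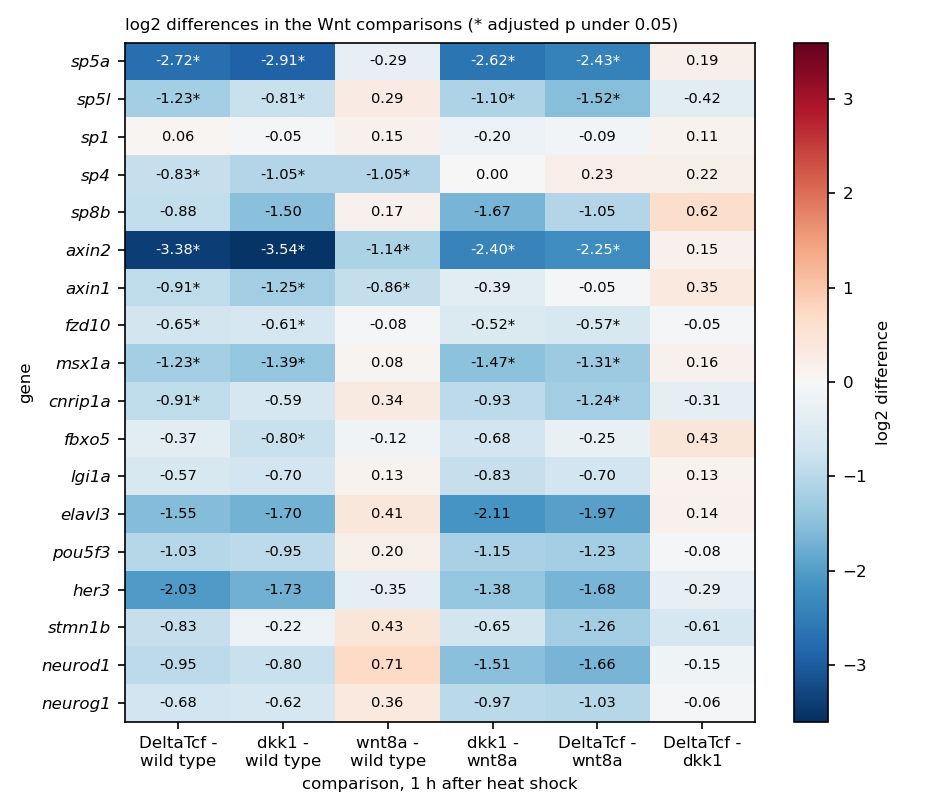
Log2 difference of the pair, of the other tested Sp family genes, of 3 Wnt pathway genes and of the genes whose levels ran most like theirs (rows) in the 6 Wnt comparisons (columns), with an asterisk at an adjusted p under 0.05. The rows of sp5a, sp5l, axin2, fzd10, msx1a and cnrip1a carry calls against wild type and against wnt8a, those of cnrip1a for the libraries labelled DeltaTcf, and the rows from lgi1a down carry none.

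Retinoic acid lowered sp5a at 1.5 h. The DMSO arrays read 7.80, 8.27, 8.03 and 8.09, and the RA arrays 6.04, 5.65, 5.74 and 6.69. All RA arrays lay below all DMSO arrays, and the difference was -2.02 ± 0.36 (log2, SE, n = 4 and 4, limma adjusted p = 7.93e-05), or 4.06-fold lower, in a comparison that called 1.97% of probe sets lower. It came at place 16 among all falls. At the same time point sp5l read 10.16, 10.98, 10.07 and 10.21 in DMSO and 10.27, 9.25, 9.95 and 10.53 in RA, which overlapped, with a difference of -0.35 (95% interval -0.87 to 0.17, adjusted p = 0.571). Whether the genes differ in this response was not tested. The neural marker mean spanned 5.31 to 7.05 in DMSO and 5.33 to 7.70 in RA, and these overlapped. The muscle marker mean was 7.05 to 7.59 in DMSO and 6.31 to 6.73 in RA, without overlap, with 3 of 6 tested markers called lower. The PSM marker mean was 9.20 to 9.77 in DMSO and 8.56 to 9.32 in RA, with 4 of 10 called lower and 1 higher. The part of these markers in the fall of sp5a was not tested. Of the 28 tested genes of posterior mesoderm and tail bud, 1 was called higher and 9 lower in RA at 1.5 h, beside the 1.97% of all probe sets called lower.

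At 3 h the DMSO arrays read 7.18, 7.99, 7.06 and 7.85 for sp5a and the 3 RA arrays 6.40, 6.19 and 6.75. The arrays again did not overlap, but the difference of -1.07 ± 0.39 was not called (limma adjusted p = 0.155), where 3.68% of probe sets were called in either direction. It passed only with array quality weights, at -1.09 (adjusted p = 0.0269). The change of the RA effect from 1.5 h to 3 h was 0.95 ± 0.54 for sp5a (limma adjusted p = 0.572) and was not called, in a contrast that called 0.721% of probe sets. For sp5l the difference at 3 h was -0.48, with a 95% interval of -1.04 to 0.08 (adjusted p = 0.603).

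Blockade of the Fgf receptor gave values of opposite sign at its time points, none of which was called. At 30 min after heat shock sp5a read 7.73, 6.80, 5.89 and 7.60 in wild type and 6.39, 6.24, 5.35 and 5.65 in dnfgfr1. The arrays overlapped through wild-type replicate 3, and the difference was -1.1 ± 0.36 (limma adjusted p = 0.0896, n = 4 and 4), where 3.00% of probe sets were called in either direction. Without that replicate it was -1.47 and called (adjusted p = 0.0163). At 1 h sp5a read 8.76, 8.07, 9.77 and 8.01 in dnfgfr1, and the difference was 0.67 ± 0.36 (adjusted p = 0.400, background 3.42%).

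The difference between these effects was 1.77 ± 0.51 for sp5a (limma adjusted p = 0.147) and 1.03 ± 0.37 for sp5l (adjusted p = 0.326), and 0.375% of probe sets were called in it. Without wild-type replicate 3 at 30 min it was 2.14 and called for sp5a (adjusted p = 0.0324). The values of sp5l were -0.60 (adjusted p = 0.247) at 30 min and 0.43 (adjusted p = 0.470) at 1 h. The neural marker mean was also lower in dnfgfr1 at 30 min and on average higher at 1 h, where the arrays overlapped. It was 5.11 to 5.32 in dnfgfr1 against 5.33 to 6.68 in wild type at 30 min, and 6.40 to 8.16 against 5.63 to 7.41 at 1 h, and the PSM marker mean was 8.52 to 9.37 in dnfgfr1 against 9.49 to 9.74 in wild type at 30 min. None of the 7 neural markers was called at either time, and the part of either list in these values was not tested. The axin2 level fell in dnfgfr1 at 30 min, with a difference of -1.38 (adjusted p = 0.000723).

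Neither gene was called when Notch was activated or inhibited. At 45 min sp5a read 7.72, 6.18, 8.09 and 7.02 in gal4 and 8.78, 7.17, 8.43 and 7.55 in notch1a-intra, a difference of 0.73 ± 0.36 (limma adjusted p = 0.270), where 4.09% of probe sets were called. Same-numbered arrays deviated together here, and within the 4 pairs sp5a was higher in notch1a-intra each time, by 1.05, 0.99, 0.34 and 0.53. In a fit of only these groups 61 probe sets were called, and 158 when replicate number was added to it as a block, without either gene (adjusted p = 0.0973 for sp5a). Without notch1a-intra replicates 2 and 4, whose notch1a was near that of gal4, the difference was 1.35 and called (adjusted p = 0.0300), but that setting keeps the gal4 arrays paired with them, at 6.18 and 7.02. Without both members of these pairs it was 0.70 (adjusted p = 0.440). With array quality weights its sign turned, at -0.21. The neural marker mean was 8.02 and 7.39 on replicates 1 and 3 and 6.16 and 5.46 on replicates 2 and 4, and its part was not tested.

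For sp5l the difference at 45 min was -0.29 (limma adjusted p = 0.594). At 90 min it was -0.59 for sp5l (adjusted p = 0.175) and -0.40 for sp5a (adjusted p = 0.603), with 6.87% of probe sets called. In DAPT the 4 differences ran from -0.61 to 0.49, with SEs from 0.28 to 0.45, and 4.09% and 5.35% of probe sets were called at 1.5 h and 3 h. The change of effect between the time points was not called for either gene, where 0.691% of probe sets were called for notch1a-intra and 3.96% for DAPT. At 90 min axin2 fell in notch1a-intra, with -1.49 (adjusted p = 9.94e-05), without a call of the pair.

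The controls themselves differed. In gal4 embryos sp5a rose between 45 min and 90 min, from 7.25 ± 0.84 to 9.13 ± 0.73 (SD, n = 4 each), by 1.87 ± 0.36 (log2, SE, limma adjusted p = 0.000606), or 3.66-fold, with 2.19% of probe sets called higher. The 90 min arrays read 9.66, 8.05, 9.43 and 9.36, and the lowest of them overlapped the 45 min arrays. The call was lost when only these groups were fitted (adjusted p = 0.124). The neural marker mean spanned 5.30 to 7.15 at 45 min and 6.84 to 8.36 at 90 min, and the mean of 6 blood and endothelium markers 7.34 to 9.12 and 5.22 to 7.19. Their part was not tested. The change of sp5l was 0.35 (adjusted p = 0.548).

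In wild type the differences between 30 min and 1 h were 0.98 ± 0.36 for sp5a (limma adjusted p = 0.114) and 0.65 ± 0.26 for sp5l (adjusted p = 0.146), both without a call, where 4.37% of probe sets were called. The DMSO groups of the RA and DAPT experiments, with the same labelled treatment, differed in sp5l by 0.71 ± 0.26 at 1.5 h (adjusted p = 0.0507), just short of a call, although the arrays did not overlap. That comparison called 16.8% of probe sets, and 28.8% were called at 3 h, where sp5l differed by 0.52 (adjusted p = 0.122). For sp5a the values were 0.17 and -0.06. Between 1.5 h and 3 h, where 4.37% and 4.83% of probe sets were called in the DMSO groups of the RA and DAPT experiments, neither gene was called. The RA and DAPT groups were tested against their own DMSO groups, while the order of levels and the likeness over all 19 groups include this difference between experiments.

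Over all 19 groups sp5a varied more than sp5l. Its group means spanned 4.05 units, with a pooled SD within groups of 0.53, and those of sp5l spanned 1.68 units, with an SD of 0.38. The order for sp5a began with gal4 at 90 min (9.13 ± 0.73), notch1a-intra at 90 min (8.73 ± 0.33) and dnfgfr1 at 1 h (8.65 ± 0.82). The middle was held by the DMSO, DAPT, wild-type, wnt8a and 45 min groups, from 8.05 down to 6.98. It ended with RA at 3 h (6.45 ± 0.28), RA at 1.5 h (6.03 ± 0.47), dnfgfr1 at 30 min (5.91 ± 0.49), the libraries labelled DeltaTcf (5.26 ± 0.23) and dkk1 (5.08 ± 0.26). For sp5l the highest groups were dnfgfr1 at 1 h (11.13 ± 0.33), gal4 at 90 min (11.01 ± 0.22) and wnt8a (10.99 ± 0.24). The lowest were the libraries labelled DeltaTcf (9.47 ± 0.33), DMSO of the DAPT experiment at 3 h (9.46 ± 0.34) and dnfgfr1 at 30 min (9.45 ± 0.54), with dkk1 at 9.89 ± 0.06 at place 13. In each order all 18 pairs of neighbours overlapped in their arrays.

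In the 20 comparisons of 2 groups sp5a was thus called in 6, with 5 falls and 1 rise, and sp5l in 4, all of them falls in the Wnt comparisons. The 4 Wnt calls of each gene reuse the same groups of arrays and are not independent. Of the 4 contrasts of an effect between times, none called either gene in the limma fit, where the unadjusted p was 0.00112 for sp5a and 0.00682 for sp5l in dnfgfr1 and 0.0325 for sp5a in notch1a-intra.

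The genes whose levels ran most like the pair were found by Pearson's r over the 19 group means, among 6502 other genes. The values describe likeness only, and the points share control arrays and normalisation. For sp5a the most alike were elavl3, a gene of early neurons (r = 0.82), the homeobox gene msx1a (0.79), the cell cycle regulator gene fbxo5 (0.79), lgi1a (0.79) and cnrip1a (0.78), and the least alike were adoa (-0.78) and the neural crest gene snai2 (-0.73). For sp5l they were stmn1b, a gene of neurons (0.84), pou5f3, a factor of early embryonic cells (0.83), her3, a hairy-related repressor of neural precursors (0.82), and the proneural genes neurod1 (0.82) and neurog1 (0.81), and among the least alike was the cell cycle gene cdc20 (-0.79). For each of the pair, 1 gene with only a placeholder name is left out among the least alike. The pair's own r was 0.66, at place 54 for sp5a and 49 for sp5l. The r of axin2 was 0.73 with sp5a, at place 24, and 0.45 with sp5l, at place 580. Without the 3 Wnt groups it was 0.42 with sp5a and 0.55 with sp5l.

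Within groups, over the deviations of the 72 arrays from their group means, r was 0.42 between sp5a and sp5l, 0.59 between sp5a and axin2 and 0.26 between sp5l and axin2. Of the genes most like sp5a, msx1a fell with it in the Wnt comparisons, with -1.39 in dkk1 against wild type (limma adjusted p = 9.2e-05) and -1.47 in dkk1 against wnt8a (adjusted p = 0.000453). For cnrip1a only the libraries labelled DeltaTcf were called, with -0.91 against wild type (adjusted p = 0.0322) and -1.24 against wnt8a (adjusted p = 0.016), and for fbxo5 only dkk1 against wild type, with -0.80 (adjusted p = 0.00281). The elavl3 differences were larger but had an SE of 0.83 and were not called, at -1.70 and -2.11. None of the 5 genes most like sp5l was called in any of the 6 Wnt comparisons, where sp5l was called in 4. Their SEs were wider, from 0.46 to 0.82, beside 0.26 for sp5l. In dkk1 against wnt8a all 5 were lower, from -0.65 for stmn1b to -1.51 for neurod1, beside -1.10 for sp5l. In dkk1 against wild type they ran from -0.22 for stmn1b to -1.73 for her3, beside -0.81 for sp5l.

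The neural tube marker mean had r of 0.73 with sp5a and 0.86 with sp5l over the 19 group means, and 0.47 and 0.51 within groups. Its markers elavl3 and neurog1 are also among the genes named as most like sp5a and sp5l in turn, so these observations share genes. For the PSM markers these were 0.38 and 0.42 over group means and, with the opposite sign, -0.25 and -0.19 within groups. Of the notochord list 4 of 6 markers were on the array, with r of 0.60 and 0.79, and shhb and col2a1a stayed near the bottom of the scale, with group means of at most 4.53 and 4.82. Along the neural markers, the points of dkk1, of the libraries labelled DeltaTcf and of RA at 1.5 h lay below groups of like marker mean for sp5a. For sp5l dkk1 and the libraries labelled DeltaTcf lay among the others, while wnt8a, at 10.99, lay above groups of like marker mean. At marker means of 5.79 in dkk1 and 5.78 in wild type at 30 min, sp5a was 5.08 ± 0.26 and 7.01 ± 0.85 (SD, n = 4 each), and sp5l was 9.89 ± 0.06 and 10.04 ± 0.55. The part of neural tissue in the levels of either gene was not tested.

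**Figure D5:**
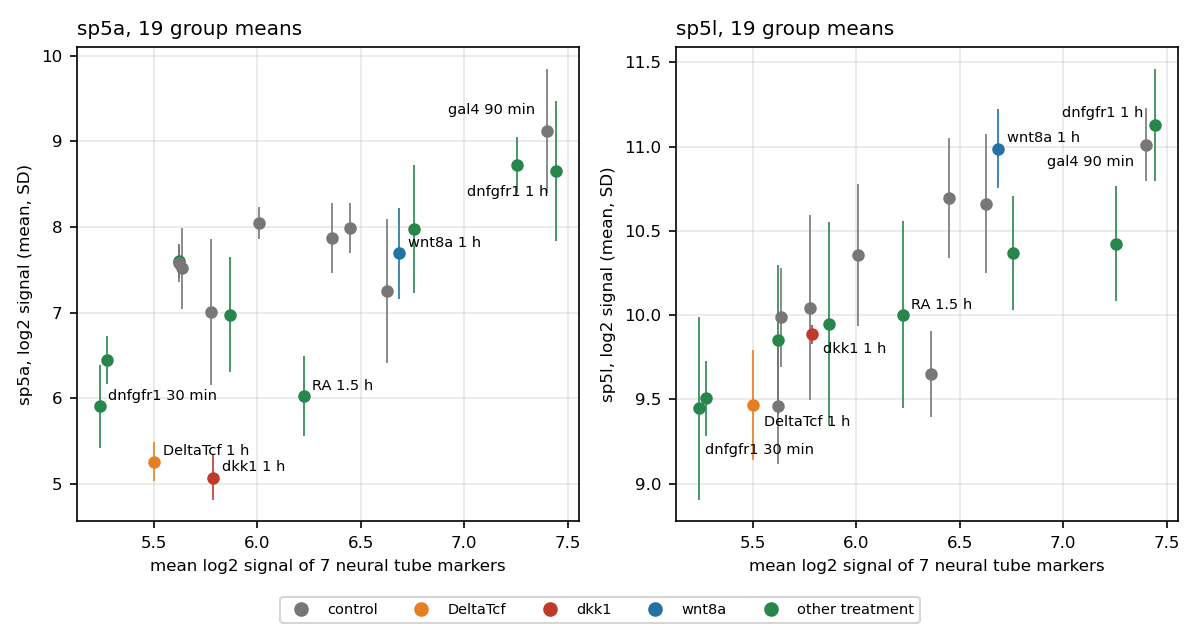
Group means of sp5a (left) and sp5l (right), with SD bars, against the mean log2 signal of 7 neural tube markers in the same group, for 19 groups. With r = 0.73 the sp5a points of dkk1, DeltaTcf and RA at 1.5 h lie low at 5.08, 5.26 and 6.03, while the sp5l points run along the markers with r = 0.86.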

How the data were processed

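The authors' deposited files hold intensity values, not logged, for 15617 probe sets on each of 72 arrays. The submitters' processing notes name MAS5, whose version is not given in the sources used here. All arrays had been scaled alike, to a mean of 150 with 2% of values trimmed at each end. A pseudocount of 16 was added, log2 was taken, the 115 control probe sets were left out and the arrays were quantile normalised. The pseudocount understates changes of dim genes, sp5a in the inhibited Wnt groups among them. Probe sets above the median of the array on at least 3 arrays were tested, 10126 in all. The test was limma 3.58.1 in R 4.3.3 with 19 group means and all arrays, moderated by empirical Bayes (trend, robust). Tests were two-sided, with p-values adjusted by Benjamini-Hochberg over the probe sets of a comparison.

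There were 20 comparisons of 2 groups and 4 contrasts of an effect between times. Symbols came from the platform annotation, updated through Entrez identifiers, and the brightest probe set stands for a gene that has several. For arrays, their number limits the precision. The p-values measure the spread between arrays labelled as biological replicates.

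Genes were named by rule: the pair, the 5 most and 2 least like each over 19 group means, fixed checks such as axin2, all tested Sp family genes, and up to 5 genes each of the Wnt and posterior lists with the smallest p in dkk1 against wild type and against wnt8a. The members and lists were chosen with earlier results of these data known. One of the genes least like sp5l is not reported here. A planned search of promoters and proteins was not analysed here.

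Same-numbered arrays deviated together in every pair most clearly for notch1a-intra and gal4 at 45 min, with correlations of 0.21 to 0.31 over 4 pairs. The numbers were taken to pair these arrays only. Weaker positive values in every pair were 0.04 to 0.12 for notch1a-intra at 90 min and 0.10 to 0.17 for the 2 pairs of DAPT at 3 h. The fit was also run on simulated data with known changes, and the outcome is not given here. Those values were independent normal draws, without a floor or pairs of arrays, so the run does not bear on these features.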

Additional observations from a re-analysis of the deposited data

Results flagged for a closer look

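Of the 32 groups of 4 arrays or sets of levels examined, 4 held an array far from the other 3 by Dixon's test, where chance gives about 1 in 20, or 1.6. For sp5a, dkk1 replicate 1 lay lowest at 4.69, with the next array at 5.16. For sp5l, dkk1 replicate 4 lay lowest at 9.80, with the next at 9.91, in a group whose arrays differed little. The test used the normalised levels only. On the deposited scale the dkk1 arrays read 997, 972, 957 and 913 for sp5l, in order of replicate. For sp5a they read 10.8, 20.9, 24.3 and 19.6. DMSO replicate 2 of the RA experiment at 1.5 h lay highest for sp5l at 10.98, with the next at 10.21, and its neural marker mean of 7.05 was the highest of its group. In gal4 at 45 min, replicate 2 lay lowest for sp5l at 10.05, with the next at 10.85, and its neural marker mean of 5.30 was the lowest of its group. The part of the neural markers in these values was not tested.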

How the results depend on the processing

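The 54 results on the pair gave 986 values under other settings, of which 962 kept their side of the threshold, 8 lost a call and 16 gained one, and no called value changed sign. Among values not called, 13 values of 9 results had another sign. No setting changed a call in 41 results. The p-values are from limma unless named. Where the setting itself does not show the cause of a change, the cause was not tested.

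With median centring, the DMSO groups of the RA and DAPT experiments differed in sp5l by 0.868 (adjusted p = 0.00864) at 1.5 h and 0.953 (adjusted p = 0.0016) at 3 h, and centring shifted the median of all probe sets by 0.14 and 0.25 there. The value at 1.5 h, 0.705, was also called with the strict filter (adjusted p = 0.0452) and in the fit of these groups alone (adjusted p = 0.0475). Array quality weights called sp5a in RA at 3 h (-1.09, adjusted p = 0.0269), sp5a and sp5l in dnfgfr1 at 30 min (-1.10, adjusted p = 0.0175, and -0.711, adjusted p = 0.0374), sp5a in wild type over time (1.01, adjusted p = 0.0303) and the change of the dnfgfr1 effect on sp5a (1.86, adjusted p = 0.0234). The rise of sp5a in gal4 over time, 1.87, was lost in the fit of these groups alone (adjusted p = 0.124). With wild type at 30 min as control, sp5l differed by -0.576 (adjusted p = 0.0948) in the libraries labelled DeltaTcf, -0.158 (adjusted p = 0.697) in dkk1 and 0.945 (adjusted p = 0.00457) in wnt8a. Without notch1a-intra replicates 2 and 4 at 45 min, sp5a differed by 1.35 (adjusted p = 0.0300), and without their gal4 partners too, a setting added after seeing the data, by 0.698 (adjusted p = 0.440). The sp5a minus sp5l change between the libraries labelled DeltaTcf and wnt8a was -0.705 (exact permutation, adjusted p = 0.0571) on the deposited scaling and -0.110 (exact permutation, adjusted p = 0.571) with a pseudocount of 64. Without the libraries labelled DeltaTcf, a setting chosen after seeing the data, no call of the pair changed.

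With the replicate number as a block in the fit of the compared groups, the gal4 rise of sp5a was 1.87 (adjusted p = 0.0561) and the DMSO difference of sp5l at 3 h 0.525 (adjusted p = 0.0131). The numbers of these arrays did not pair them, and the block changed no other call of the pair.

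With 1 array left out in turn, sp5l in dkk1 against wild type ran from -0.958 to -0.700, sp5a in dnfgfr1 at 30 min from -1.47 to -0.860, the change of the dnfgfr1 effect on sp5a from 1.39 to 2.14, and the DMSO difference of sp5l at 1.5 h from 0.496 to 0.828. The last was called without replicate 3 of DMSO in the RA experiment (adjusted p = 0.0470) or replicate 4 of DMSO in the DAPT experiment (adjusted p = 0.0376).

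Counts of called probe sets moved by over 1.5 times in 17 of 24 comparisons with array quality weights, in 11 with only the compared groups fitted and in 12 with the block in that fit. Counts past that bound ran from 199 to 604 (main 332) for dkk1 against wnt8a, 161 to 436 (256) for DeltaTcf against wnt8a, 176 to 230 (352) for DeltaTcf against dkk1, 2539 to 2643 (1644) for wnt8a against wild type, 246 to 1068 (439) for RA at 1.5 h, 201 to 861 (304) for dnfgfr1 at 30 min, 139 to 595 (346) at 1 h, 61 to 2651 (414) for notch1a-intra at 45 min, 297 to 459 (696) at 90 min and 5 to 344 (518) for gal4 over time. RA at 3 h gave 725 (373), and DAPT from 0 to 262 (414) at 1.5 h and 35 to 315 (542) at 3 h. Wild type over time gave 140 to 1049 (442), the DMSO groups of the RA and DAPT experiments over time 235 to 1276 (442) and 18 to 289 (489), and these groups against each other at 1.5 h 627 (1705). The contrasts between times gave 34 to 362 (73) for RA, 141 (38) for dnfgfr1, 21 to 1341 (70) for notch1a-intra and 11 to 221 (401) for DAPT. The number of arrays limits what can be called.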
